A study of Mus musculus with 4 samples.

Results

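BMP signalling was followed through 8 genes, 3 ligands (Bmp2, Bmp4 and Bmp7), the 4 Id genes (Id1, Id2, Id3 and Id4) and the inhibitory SMAD gene Smad6, in mouse mammary gland cells measured on microarrays. The genes were chosen by name. A gene counted as measured where at least 1 probe set was annotated with its symbol alone, and all 8 were, with 14 probe sets in all, among 17097 such genes on the array. Where a gene had several probe sets, the brightest by mean over the 4 arrays stood for it.

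The BC alone group came from transplants of 10000 BC cells, the multipotent condition in the labels' wording, and the control group from transplants of 8000 LC cells mixed with 2000 BC cells, the unipotent condition. The labels leave the abbreviations open; BC is commonly basal cell and LC luminal cell in mammary work. In both groups cells were sorted 3 days after transplantation and RNA came from 50 cells per array, with 2 arrays per group. Genotype, strain, age, the gate of the sort and the number of animals are not given in those labels, so every p-value here reflects array-to-array spread that may be technical only. The presence of LC cells and the number of BC cells differ together between the groups and cannot be told apart.

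Bone morphogenetic proteins are secreted ligands that bind receptor kinases of type I and type II. The receptors phosphorylate SMAD1, SMAD5 and SMAD9, which enter the nucleus with SMAD4 and switch on target genes, among them the Id genes and the feedback inhibitors Smad6 and Smad7. Id proteins carry a helix-loop-helix domain but no DNA-binding region, and they capture E proteins such as those of Tcf3, Tcf4 and Tcf12 so that these cannot activate genes with their partners. In the mammary gland BMP ligands act in bud and duct development, and Id4 is known as a regulator of basal cells.

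Of the 8 genes, Id3 was the clearest difference between the groups. It was higher on both BC alone arrays than on both control arrays, with a 2.70-fold difference of means, and at least 2-fold above each control array taken alone. Id4 and Bmp7 had differences of similar size, but these came from control replicate 2, and on control replicate 1 both genes were about as high as in BC alone. Bmp2, Id1 and Smad6 were highest on BC alone replicate 1 and below a control array on BC alone replicate 2. No gene passed limma's moderated test after Benjamini-Hochberg adjustment over all 17097 genes, at a threshold of 0.05.

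Control replicate 2 stood apart from the other arrays over the whole array. Its values had an SD of 1.44 over all probe sets, against 1.90 to 1.92 on the other 3 arrays. Its Pearson correlation with them over probe sets, which are no replicates, was 0.915 to 0.919, whereas the other 3 reached 0.968 to 0.972 among themselves. The main differences are therefore also given for the remaining 3 arrays. Among all genes, 34.1% had their lowest value on that array, and so did 5 of the 8, namely Bmp2, Bmp7, Id1, Id2 and Id4.

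By their brightest probe sets, all 8 genes had a higher mean in BC alone, where 46.7% of all genes did. These differences ran from 0.21 for Id2 to 1.435 for Id3 on the log2 scale, with a median of 0.675, against -0.04 over all genes. A dimmer probe set of Bmp7 and another of Id2 differed by -0.595 and -0.15, and the remaining dimmer probe sets had a higher mean. The background was higher among brighter genes. Over the 10504 genes with a mean above 4.45, the median of all probe sets, the median difference was 0.27. Smad6 was not among them, and the other members had a median of 0.695. Id3 and Id4 were at least 2-fold higher without overlap between the groups, which is 2 of 8. Both conditions were met by 4.79% of all genes, and by 800 of the 10504 brighter ones. Without control replicate 2 only Id3 met both conditions, where 2.19% of all genes did. The median of the 8 was then 0.27, and 7 of the 8 had a higher mean, against 50.3% of all genes. In limma 0 of the 8 passed the adjusted threshold, as did 0.0% of all genes. At an unadjusted p below 0.05 there was 1 of the 8, Id3, against 3.98% of all genes.

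**Figure D1:**
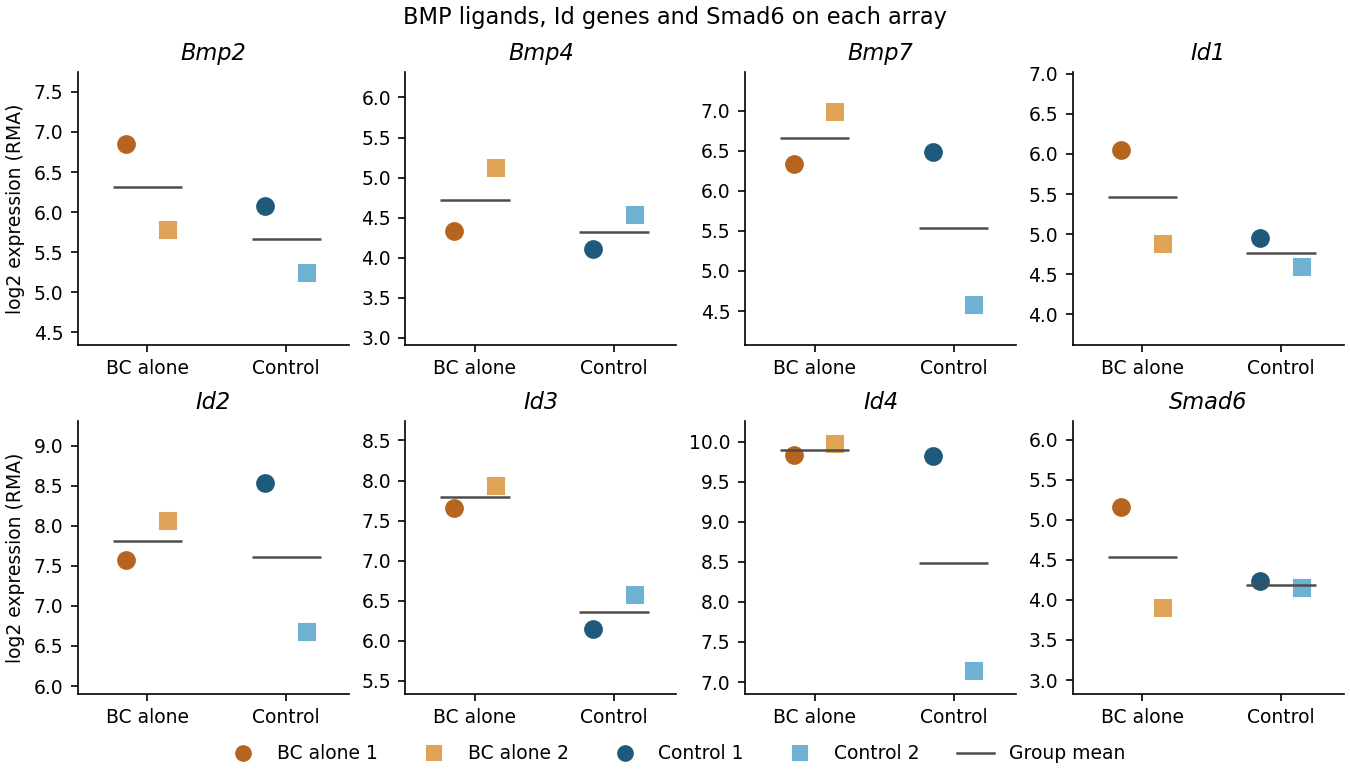
Log2 expression (RMA) of each gene on the 4 arrays, with BC alone arrays on the left and control arrays on the right of each panel, circles for replicate 1, squares for replicate 2 and bars for group means of n = 2. Every vertical axis spans the same log2 range. Id3 has both BC alone points above both control points, at 7.66 and 7.93 for BC alone against 6.15 and 6.57 for the control, while the low control means of Id4 and Bmp7 come from control replicate 2 at 7.14 and 4.57.

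Id3 is a direct target gene of BMP-activated SMADs in many cell types. It had log2 values of 7.66 and 7.93 on the BC alone arrays, against 6.15 and 6.57 on the control arrays. The lowest BC alone value lay 1.09 above the highest control value, while arrays within a group were 0.27 apart in BC alone and 0.42 apart in the control. BC alone averaged 7.795 ± 0.19 and the control 6.36 ± 0.30 (SD, n = 2), a difference of 1.435 ± 0.33 (SE) with a 95% confidence interval of 0.61 to 2.26. In limma the unadjusted p was 0.0058 and the adjusted p was 0.842. An exact two-sided permutation test gave p = 0.333, the smallest that 2 arrays against 2 allow. Of all genes, 240, or 1.40%, had a difference at least as large.

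The Id3 difference kept its direction under the 7 alternatives that could change it, which left out an array or rescaled the arrays. Leaving out control replicate 2 gave 1.645 and leaving out control replicate 1 gave 1.225, and it was 1.57 and 1.30 without BC alone replicate 1 and replicate 2. After quantile normalization of the deposited values it was 0.90 and after cyclic loess 0.97, so it fell short of 2-fold there, but the groups did not overlap under either. Id3 has 1 probe set with its symbol alone, so no further probe set bears on it.

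Id4, which in mammary gland is known from basal cells, had values of 9.83 and 9.97 on the BC alone arrays, against 9.82 and 7.14 on the control arrays. The groups were separated by 0.01, which is less than the 0.14 between the BC alone arrays. BC alone averaged 9.90 ± 0.10 and the control 8.48 ± 1.90 (SD, n = 2), a difference of 1.42 ± 0.86 (SE), with a confidence interval of -0.73 to 3.57 and adjusted p = 0.842 in limma. Without control replicate 2 the difference was 0.08, and without control replicate 1 it was 2.76. Both dimmer probe sets of Id4 had the same shape. They had 5.52 and 6.38 on the BC alone arrays against 5.28 and 2.97 on the control arrays, and 5.98 and 5.48 on the BC alone arrays against 5.41 and 2.84 on the control arrays, and without control replicate 2 they differed by 0.67 and 0.32.

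Id2, another Id gene, was highest on a control array. Its values were 7.57 and 8.06 on the BC alone arrays, against 8.53 and 6.68 on the control arrays. The difference was 0.21 ± 0.65 (SE), with an interval of -1.41 to 1.83, and it turned to -0.715 without control replicate 2, and to -0.25 and -0.37 when the deposited values were quantile-normalized or scaled by cyclic loess. A dimmer probe set gave 4.75 and 5.52 on the BC alone arrays against 5.59 and 4.98 on the control arrays, a difference of -0.15. The dimmest gave 0.215, at values of 3.50 to 4.07.

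Id1, the Id gene most often used as a readout of BMP signalling, had values of 6.05 and 4.88 on the BC alone arrays, against 4.95 and 4.59 on the control arrays. The BC alone replicate 1 value was 1.10 above the next highest, and the other 3 arrays lay within 0.36. The difference of means was 0.695 ± 0.47 (SE), with an interval of -0.48 to 1.87 and adjusted p = 0.842 in limma. Without BC alone replicate 1 it was 0.11, and without BC alone replicate 2 it was 1.28.

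Whether the difference of Id3 exceeded those of Id1, Id2 and Id4 was not tested. Over the arrays, Id3 was split by group, Id1 was high on BC alone replicate 1, and Id2 and Id4 were low on control replicate 2. The RefSeq promoter table (build GRCm38.p6) held entries for 5 of the 8 genes, Bmp4, Id2, Id3, Id4 and Smad6. The 250 bases before the start of Id3, which was at least 2-fold higher against either control array, are shown with those of Id4 and Id2, whose differences depended on control replicate 2, so that the 3 can be compared. Capitals mark each match of GGCGCC, a GC-rich palindrome known as a binding element of BMP-activated SMADs, which reads the same on both strands.
Id3 promoter, chr4:136143572-136143821, plus strand: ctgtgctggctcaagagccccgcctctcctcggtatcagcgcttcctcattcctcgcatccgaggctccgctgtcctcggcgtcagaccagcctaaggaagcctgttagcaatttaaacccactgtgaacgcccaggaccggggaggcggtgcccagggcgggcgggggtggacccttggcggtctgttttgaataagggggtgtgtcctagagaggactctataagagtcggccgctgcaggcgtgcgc
Id4 promoter, chr13:48260866-48261115, plus strand: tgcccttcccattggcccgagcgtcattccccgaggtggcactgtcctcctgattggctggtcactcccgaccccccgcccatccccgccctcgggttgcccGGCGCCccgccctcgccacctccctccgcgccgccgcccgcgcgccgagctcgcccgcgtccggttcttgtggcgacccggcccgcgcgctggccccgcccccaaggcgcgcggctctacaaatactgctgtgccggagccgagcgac
Id2 promoter, chr12:25096093-25096342, minus strand: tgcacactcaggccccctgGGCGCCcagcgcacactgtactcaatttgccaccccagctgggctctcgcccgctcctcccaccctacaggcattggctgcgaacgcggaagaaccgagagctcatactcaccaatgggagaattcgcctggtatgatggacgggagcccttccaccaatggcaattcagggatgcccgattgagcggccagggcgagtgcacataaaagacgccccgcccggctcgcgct

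Over windows of 250 bases before and 50 after the start, GGCGCC occurred once each in Id4, at position -148, and Id2, at position -231, counted from the first base before the start as -1 to the 5′ end of the match. Of all 32851 promoter windows, 11.9% held it. No match lay in the windows of Id3, Bmp4 and Smad6, which says only that these letters are not in these windows. The palindromic SMAD box GTCTAGAC, which does not overlap with GGCGCC and also reads the same on both strands, was found in 0.213% of all windows, and in that of Smad6, where its 5′ end lay at position -4. The printed stretches had a GC content of 62.8% for Id3, 75.6% for Id4 and 62.8% for Id2, against a median of 52.4% over all windows.

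Among the ligands, Bmp7 had the largest difference, and it depended on control replicate 2. Bmp7, a ligand of bud epithelium and many other tissues, had 6.33 and 6.99 on the BC alone arrays, against 6.49 and 4.57 on the control arrays. Control replicate 1 lay between the BC alone arrays, so the groups overlapped. The difference was 1.13 ± 0.68 (SE), with an interval of -0.57 to 2.83 and adjusted p = 0.842 in limma. Leaving out control replicate 2 gave 0.17, and leaving out control replicate 1 gave 2.09.

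The probe sets of Bmp7 disagreed. The second brightest had 4.70 and 5.94 on the BC alone arrays, against 6.61 and 5.22 on the control arrays, a difference of -0.595, or -1.29 without control replicate 2. The dimmest had 6.09 and 5.16 on the BC alone arrays against 5.50 and 3.80 on the control arrays, a difference of 0.975. With the mean of all 3 probe sets the difference of Bmp7 was 0.50. No direction can therefore be given for Bmp7 beyond its single probe sets.

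**Figure D2:**
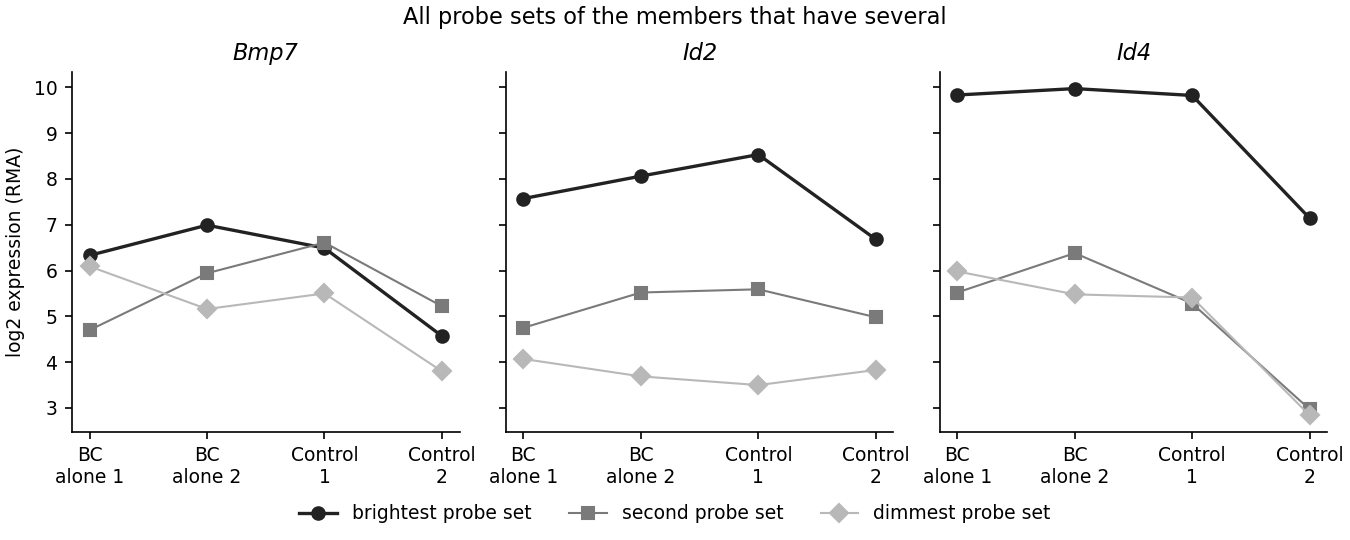
Log2 expression (RMA) of every probe set of Bmp7, Id2 and Id4 on the 4 arrays, BC alone first, with lines joining the values of a probe set as a guide to the eye. All 3 probe sets of Id4 drop on control replicate 2, to 7.14, 2.97 and 2.84, while those of Bmp7 differ in shape, one of them being highest on control replicate 1 at 6.61.

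Bmp2, a ligand that also acts in bone and heart formation, had 6.85 and 5.78 on the BC alone arrays, against 6.08 and 5.24 on the control arrays. BC alone replicate 1 was highest, and BC alone replicate 2 lay between the control arrays. The difference was 0.655 ± 0.50 (SE), with an interval of -0.60 to 1.91, and was 0.12 without BC alone replicate 1 and 0.235 without control replicate 2. Bmp4, a ligand of mesenchyme and early mammary development, had 4.33 and 5.12 on the BC alone arrays, against 4.11 and 4.53 on the control arrays. Its difference was 0.405 ± 0.40 (SE), with an interval of -0.59 to 1.40, and 0.01 without BC alone replicate 2. Values of Bmp4 lay on both sides of 4.45, the median of all probe sets, and came with no detection call.

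Smad6 encodes an inhibitory SMAD that binds type I receptors and is induced by BMP signalling. It had 5.16 and 3.90 on the BC alone arrays, against 4.23 and 4.15 on the control arrays. BC alone held both the highest and the lowest array, and only the highest was above 4.45. The difference was 0.34 ± 0.48 (SE), with an interval of -0.86 to 1.54, and it turned to -0.29 without BC alone replicate 1. Bmp2, Id1 and Smad6 were thus each highest on BC alone replicate 1, by 0.77, 1.10 and 0.93 over the next array.

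**Figure D3:**
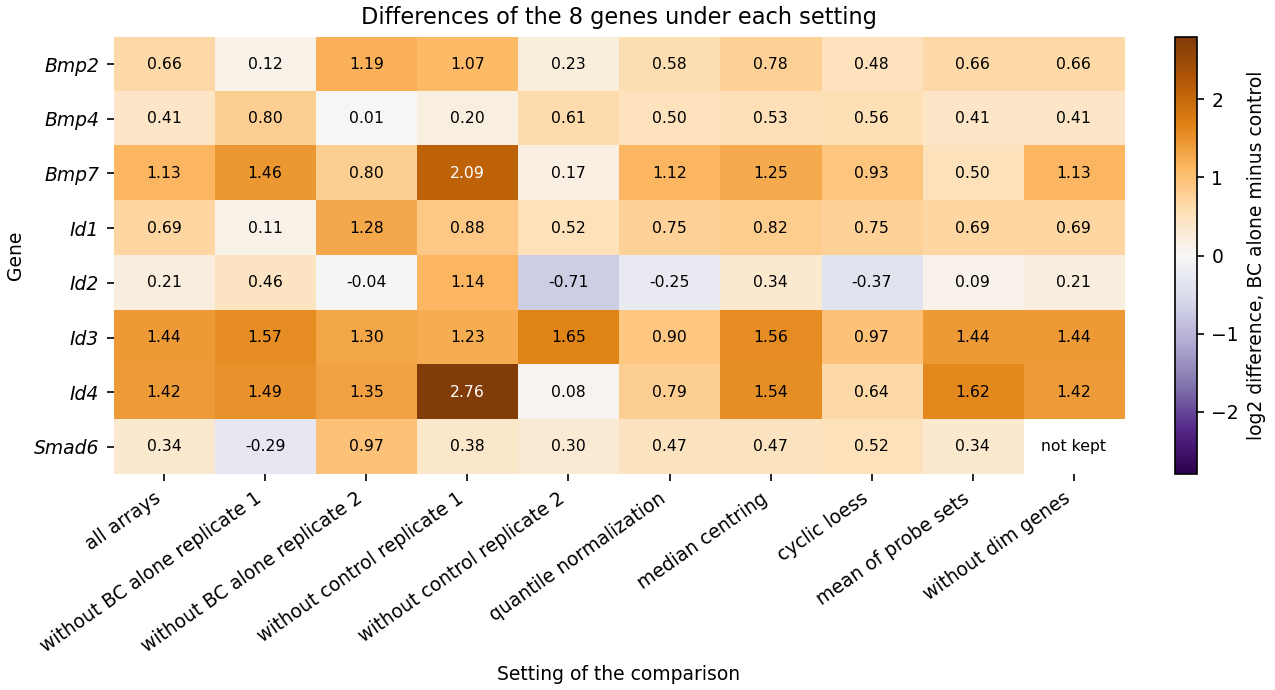
Log2 difference (BC alone minus control) of each gene, in rows, with all arrays, without each array in turn and under other scalings, probe set rules and filters, in columns. Id3 stays between 0.90 and 1.645 throughout, Id4 and Bmp7 shrink to 0.08 and 0.17 without control replicate 2, and Id2 and Smad6 change sign in places. Smad6 is not kept where dim genes are left out.

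The other genes of the pathway were divided between the groups. They came from 6 lists of ligands, receptors, signal transducers, extracellular modulators, induced genes and E proteins, with 54 measured genes in all. Of these, 27 had a higher mean in BC alone and 27 a lower one, with a median difference of 0.04, against -0.04 over all genes. Without control replicate 2, 31 had a higher mean, with a median of 0.06. At least 2-fold higher without overlap were 4, namely Acvrl1, Smurf1, Bmp1 and Twsg1, where 4.79% of all genes and 800 of the 10504 brighter ones were. As much lower were 0, where 0.895% of all genes were. Without control replicate 2 only Acvrl1 of the 54 was at least 2-fold higher without overlap, where 2.19% of all genes were. After quantile normalization Acvrl1, Smurf1, Bmp1 and Twsg1 differed by 1.26, 0.51, 0.625 and 0.64. After cyclic loess the values were 1.16, 0.48, 0.55 and 0.51 in the same order. In limma 0 of the 54 passed the adjusted threshold, and 3, or 5.56%, had an unadjusted p below 0.05, close to the 3.98% of all genes, namely Acvrl1, Smurf2 and Bambi.

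Acvrl1, a type I receptor known from endothelial cells, had the same split as Id3. It had 7.08 and 7.48 on the BC alone arrays, against 6.07 and 5.52 on the control arrays, a difference of 1.485 ± 0.36 (SE; unadjusted p = 0.0071, adjusted p = 0.842 in limma), and of 1.21 without control replicate 2. Of the 11 receptors and co-receptors, 8 had a higher mean in BC alone and 3 a lower one, with a median difference of 0.235, or 0.055 without control replicate 2. Bmpr2, the type II receptor gene, had 8.56 and 8.29 on the BC alone arrays, against 8.88 and 7.39 on the control arrays. Bmpr1a, a type I receptor gene, lay at 3.34 and 3.28 on the BC alone arrays and 3.27 and 3.07 on the control arrays, below the median of all probe sets on every array. Values this low came with no detection call, so they do not show whether Bmpr1a was expressed.

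Among 10 signal transducers and their inhibitors, 7 had a higher mean in BC alone and 3 a lower one, with a median difference of 0.91, which was 0.08 without control replicate 2. Smad1 had 8.07 and 8.29 on the BC alone arrays, against 8.01 and 6.42 on the control arrays, and Smad4 had 8.56 and 8.45 on BC alone arrays against 8.42 and 6.64 on control arrays. Both were low on control replicate 2 alone, and without it they differed by 0.17 and 0.085. Smad5 differed by 0.21, and by -0.10 and -0.09 with quantile normalization and with cyclic loess. Smurf1, a ubiquitin ligase that marks SMAD1 and SMAD5 for degradation, had 9.43 and 8.76 on the BC alone arrays, against 8.55 and 7.30 on the control arrays, a difference of 1.17 ± 0.52 (SE), or 0.545 without control replicate 2. Its relative Smurf2 had 8.19 and 8.41 on BC alone arrays against 7.48 and 7.13 on control arrays, a difference of 0.995 ± 0.32 (SE), or 0.82 without control replicate 2. With quantile normalization and with cyclic loess the Smurf2 difference was 0.37 and 0.40, and the list median was 0.21 and 0.15.

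Of 8 other measured genes that BMP induces, 3 of which are also on the lists of inhibitors and antagonists, 1 had a higher mean in BC alone and 7 a lower one, where 52.9% of all genes were lower, and the contrast with Id3 was not tested. The list had a median difference of -0.425, or -0.13 without control replicate 2, where the homeobox genes Msx1, Msx2, Dlx3 and Dlx5 differed by 0.065, -0.095, -0.165 and -0.045. Bambi, a decoy receptor that dampens the pathway, had 4.76 and 5.06 on the BC alone arrays, against 6.26 and 5.52 on the control arrays, a difference of -0.98 ± 0.38 (SE), and of -1.35 without control replicate 2. Smad7, an inhibitory SMAD induced by BMP and TGF-beta, had 5.82 and 6.21 on the BC alone arrays, against 7.37 and 5.71 on the control arrays, a difference of -0.525, or -1.355 without control replicate 2. Hey1 was the gene with a higher mean, at 8.12 and 7.70 on BC alone arrays against 7.46 and 6.40 on control arrays, a difference of 0.98, or 0.45 without control replicate 2.

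Of 8 other BMP and GDF ligands measured, 1 had a higher mean in BC alone and 7 a lower one, where 52.9% of all genes were lower, and 6 had a mean over the arrays below 4.45, the median of all probe sets. The higher gene was Bmp6, with 4.85 and 4.90 on the BC alone arrays, against 3.94 and 4.28 on the control arrays, a difference of 0.765 ± 0.31 (SE). The list median was -0.41, and -0.05 without control replicate 2, and it turned to 0.16 over the 2 genes left without the dim ones. Of 17 extracellular antagonists and modulators, 7 had a higher mean and 10 a lower one, with a list median of -0.03. This median was above 0 under each other scaling, at 0.095 to 0.16, and at 0.18 without control replicate 2. It was 0.425 over the 9 genes left without the dim ones. Leaving out control replicate 1 gave -0.19, BC alone replicate 2 gave -0.13 and BC alone replicate 1 gave -0.005. The mean of probe sets gave -0.04, so the sign depended on the setting. Bmp1, a protease that cuts the BMP antagonist chordin and procollagens, had 9.99 and 9.93 on the BC alone arrays, against 9.53 and 7.71 on the control arrays, a difference of 1.34 ± 0.62 (SE), or 0.43 without control replicate 2. Twsg1, which binds BMP ligands, had 8.77 and 8.79 on BC alone arrays against 8.58 and 6.66 on control arrays, a difference of 1.16, or 0.20 without control replicate 2, and the antagonist noggin (Nog) differed by -0.025.

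In the deposited values, the E protein genes Tcf3 and Tcf4 lay higher on both BC alone arrays. Tcf3 had 8.17 and 7.96 on the BC alone arrays, against 7.55 and 7.42 on the control arrays, a difference of 0.58 ± 0.30 (SE), and Tcf4 had 7.38 and 7.37 on BC alone arrays against 6.65 and 6.96 on control arrays, a difference of 0.57 ± 0.31 (SE). Tcf12 differed by 0.17 with overlap. Under quantile normalization and cyclic loess the differences were -0.07 and -0.01 for Tcf3, 0.01 and 0.10 for Tcf4, and -0.18 and -0.24 for Tcf12. The direction of Tcf3 and Tcf12 and the size of the Tcf4 difference thus depended on the scaling.

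**Figure D4:**
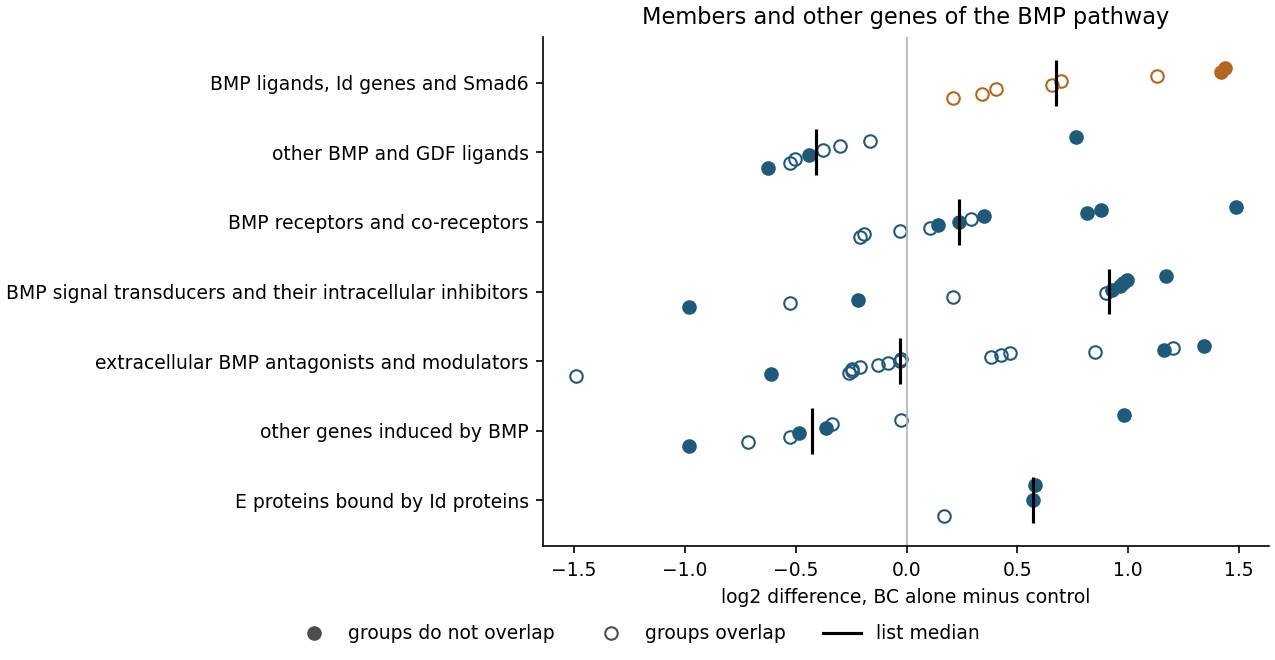
Log2 difference (BC alone minus control) of each measured gene, with the 8 genes described here on top and the 6 pathway lists beneath. Filled points mark genes whose groups do not overlap, open points the others, and vertical bars the list medians, which run from 0.91 for signal transducers and their inhibitors, with 0.675 for the 8 genes, to -0.425 for other genes induced by BMP.

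Some markers of pericytes, endothelial cells, fibroblasts and luminal cells were higher on both BC alone arrays than on both control arrays, as Id3 was. None passed the adjusted threshold in limma. Not all were separated as widely as Id3, which differed by 1.645 without control replicate 2. Without that array Krt8 differed by 0.20 and Col3a1 by 0.205, whereas Tek differed by 1.945 and Rgs5 by 3.645. Over all genes, 16.8% were higher and 19.6% lower on both BC alone arrays than on both control arrays. Pericyte markers, summed over the 3 measured, had log2 values of 10.02 and 9.20 on the BC alone arrays, against 7.84 and 8.42 on the control arrays. Rgs5 and Notch3, 2 of the 3, were higher on both BC alone arrays. The third, Pdgfrb, had 6.74 and 6.62 on BC alone arrays against 6.20 and 7.37 on control arrays, a difference of -0.105. Of 7 endothelial markers 3 were higher on both BC alone arrays, namely Cdh5, Tek and Emcn, with sums of 9.57 and 9.39 on BC alone arrays against 8.89 and 8.62 on control arrays. Of 8 fibroblast markers 6 were, with sums of 12.47 and 12.63 on BC alone arrays against 11.85 and 10.34 on control arrays. The fibroblast sum was lowest on control replicate 2. Of 10 luminal markers 4 were higher on both BC alone arrays, namely Krt8, Gata3, Esr1 and Prom1. Esr1, the estrogen receptor gene, had 8.13 and 9.19 on BC alone arrays against 6.48 and 6.72 on control arrays. Pgr, the progesterone receptor gene, had 6.57 and 5.59 on BC alone arrays against 7.36 and 5.30 on control arrays. Pgr and Elf5 had a lower mean in BC alone. Without control replicate 2, 5 of the 10 luminal markers had a higher mean. Of 8 leukocyte markers 1 was higher and 4 were lower on both BC alone arrays, with sums of 8.44 and 8.96 on BC alone arrays against 9.59 and 9.08 on control arrays. The median differences over all arrays were 1.64 for pericyte, 0.215 for endothelial, 1.725 for fibroblast, 0.84 for luminal and -0.52 for leukocyte markers. Without control replicate 2 they were 1.58 for pericyte, 0.735 for endothelial, 0.83 for fibroblast, 0.015 for luminal and -0.455 for leukocyte markers. The part of these cell types in the Id3 difference was not tested. The values have no true 0 and no detection call, so no marker can be called absent.

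Most basal markers, Oxtr being the exception, were lowest on control replicate 2, as Id4 was. Of 7 measured, 1 was higher on both BC alone arrays without overlap, and the sums were 12.61 and 12.25 on the BC alone arrays, against 12.64 and 9.02 on the control arrays. Their median difference was 1.405, and -0.415 without control replicate 2. The luminal sum, in which Krt8, Krt18 and Epcam were brightest by mean, was 11.90 and 12.11 on BC alone arrays against 11.93 and 10.17 on control arrays. Both sums were thus lowest on control replicate 2, and the part of these cells in the Id4 values was not tested. In RNA from sorted pools, fewer cells of a type and less RNA per cell cannot be told apart.

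**Figure D5:**
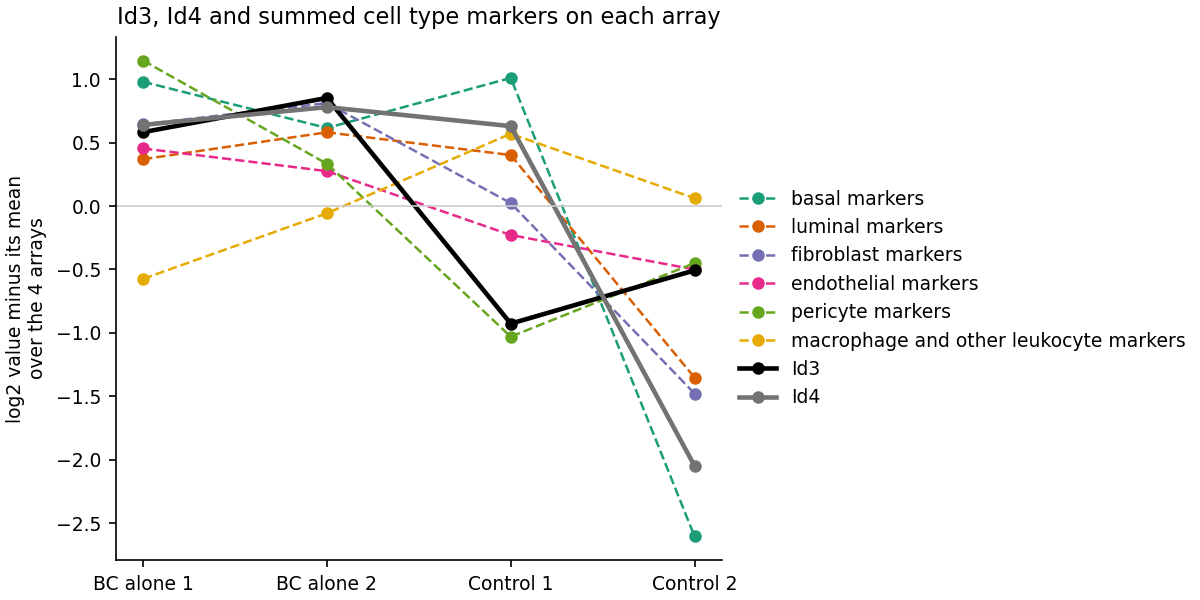
Log2 values of Id3 and Id4 (solid) and of summed marker sets of 6 cell types (dashed) on the 4 arrays, each minus its own mean over the arrays, with lines as a guide to the eye. Id3 and the pericyte, endothelial and fibroblast sums are higher on both BC alone arrays than on both control arrays. The fibroblast sum is lowest on control replicate 2, and Id4 and the basal sum are low on control replicate 2 alone. Pdgfrb, which is part of the pericyte sum, was itself highest on control replicate 2, at 7.37.

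Genes closest in shape were found by the Euclidean distance between log2 values centred on each gene's mean over the 4 arrays, which is a description of 4 points. Id3 was nearest to Tmem106b, at 0.18, and Rbp7, at 0.20, and 51 genes lay within a distance of 0.5. Rbp7 had 6.86 and 7.0 on the BC alone arrays, against 5.09 and 5.74 on the control arrays. Id4 was nearest to Aebp1 and Phlda1, and 135 genes lay within that distance. For the others the nearest were Atg101 and Cog8 for Bmp2, Eno2 and Prkrip1 for Bmp4, Basp1 and Creld2 for Bmp7, Dmtn and Phyh for Id1, Trp53inp1 and Prdx4 for Id2, and Sipa1l2 and Prnd for Smad6, with 279 to 694 genes within it.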

How the data were processed

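The authors deposited log2 expression values for each probe set and array. They used RMA and affy, per the submitters' processing notes, without stated versions. RMA as usually run subtracts background, equalises arrays by quantiles and condenses probes into 1 value. The deposited distributions were not equal, with medians of 4.37 to 4.38 on 3 arrays and 4.62 on control replicate 2, so how the arrays were equalised is not known. RMA compresses large differences, so a fold may be too small. A genome build for the array is not given in the sources used here. Precision is limited by the number of arrays.

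Of 45141 probe sets, 28898 had 1 gene symbol in the platform annotation, parts of which are old, and 551 had several. These gave 17097 genes, each by its brightest probe set, with no filter on dim genes. All 8 symbols matched the reference gene table through Entrez identifiers. BC alone was compared with the control in limma 3.58.1 under R 4.3.3 (lmFit and eBayes, no trend, not robust, no block), with two-sided p-values adjusted over all genes by Benjamini-Hochberg, on 2 residual and 3.50 prior degrees of freedom. Exact permutation tests used SciPy 1.17.1. The fit was tested on simulated data, with 200 of 17097 genes shifted by 1, 2, 3 or 4 log2 units, of which 0%, 56%, 100% and 98% were called. The simulated noise was normal, independent between genes and of the same spread on all 4 arrays. It held no array that stood apart as control replicate 2 did, so these shares may be too high for the real arrays.

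Named genes were the 8 genes, up to 4 per pathway list that were at least 2-fold different without overlap, 10 pathway genes whatever their values (Bmpr1a, Bmpr2, Smad1, Smad5, Smad4, Smad7, Nog, Tcf3, Tcf4 and Tcf12) and the 2 genes nearest in shape to each of the 8. Smurf2, Bambi, Hey1, Bmp6, Msx1, Msx2, Dlx3, Dlx5, Grem1, Fst and the cell type markers named singly fall outside that rule and were picked with their values in view. The genes and lists were chosen with earlier results of these data known. Alternatives left out each array, rescaled the arrays, averaged probe sets, removed dim genes, changed the variance model or added a replicate block.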

Additional observations from a re-analysis of the deposited data

How the results depend on the processing

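Of 12 alternatives, 8 could change a difference. Bmp2, Bmp4, Id1, Id3, Id4 and the brightest probe set of Bmp7 kept their sign under these, though down to 0.01 for Bmp4, 0.08 for Id4, 0.11 for Id1, 0.12 for Bmp2 and 0.17 for Bmp7, and another Bmp7 probe set had the opposite sign. Id2 ran from -0.715 to 1.135 when 1 array was left out, being below 0 without control replicate 2 and, at -0.035, without BC alone replicate 2. It was -0.25 after quantile normalization and -0.37 after cyclic loess. Smad6 ran from -0.29, without BC alone replicate 1, to 0.97. None of the 8 passed the adjusted threshold in limma under any alternative. Over all genes 97 passed with an intensity trend, against 0 in the main comparison and 0 with any 1 array left out. The replicate block gave 108, none of them among the 8. The labels do not say that the groups share a replicate number, so the numbers were not taken to pair the arrays. Same-numbered arrays deviated from their group means with a correlation of -0.018 over genes, which cannot settle pairing with 2 arrays per group. Of the 8, 2 were at least 2-fold apart without overlap, 0 after quantile normalization, 0 after cyclic loess and 1 to 5 with 1 array left out. Over all genes that count was 972 (84.3% higher in BC alone), 614 after quantile normalization (54.4%), 533 after cyclic loess (56.5%), 620 with the mean of probe sets and 732 to 3824 with 1 array left out (51.2% higher without control replicate 2). Median centring shifted the median of all genes by 0.125, and the 8 genes then had a median of 0.80. These counts at 2-fold were chosen after seeing the data. The cause of each change was not tested. No detection calls came with the values, so dim genes such as Smad6 and Bmp4 were not told apart from background.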

Other observations

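Grem1, an extracellular BMP antagonist, had log2 values of 4.13 and 3.44 on the BC alone arrays, against 3.91 and 6.64 on the control arrays, so control replicate 2 was the only array on which it lay above 4.45, the median of all probe sets. Follistatin (Fst), which binds activin and some BMP ligands, was lowest there, with 8.30 and 8.02 on the BC alone arrays against 8.76 and 5.16 on the control arrays. Both were chosen after their values were seen, and the groups overlapped for both.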
